A study of Danio rerio with 2 samples.

Results

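The hypoxia factor and vascular growth factor ligands of the zebrafish mTOR array were 4 genes, *hif1ab* (listed by the RefSeq identifier NM_200233), *vegfaa* (NM_001110349), *vegfab* (NM_001044855) and *vegfc* (NM_205734). They are all genes on the array whose symbol starts with hif1a or vegf, out of 84 pathway genes. The array is a PCR plate that also holds 5 reference genes, and every gene is amplified in a single well with its own primer pair and a dye for double-stranded DNA. Larvae of WT zebrafish (AB/TU background) and of *NOD1-1IS*-/- zebrafish were pooled at 10 days post-fertilization (dpf), 200 to 250 whole larvae per pool, with 3 biological replicates per genotype. The *NOD1-1IS*-/- larvae are homozygous for an insertion of 1 bp in *NOD1* made with Cas9 and a guide RNA, and come from 1 mutant line. The labels name no treatment of either genotype, low oxygen included. The *nod1* transcript is not among the genes of the array, so the genotype was not checked by it.

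Hypoxia-inducible factor 1 is a transcription factor with an oxygen-regulated alpha subunit, which is degraded when oxygen is plentiful and accumulates when oxygen is short. In mammals its transcripts are translated more when mTORC1 is active, and its targets include the gene for vascular endothelial growth factor A (VEGF-A) and *DDIT4*. The product of *DDIT4*, also called REDD1, restrains mTORC1 through the TSC complex. VEGF-A is the main signal for the growth of blood vessels, whereas VEGF-C acts chiefly on lymphatic vessels and is also used by sprouting veins. Zebrafish carry duplicated copies of several of these genes, and *vegfaa* and *vegfab* both correspond to the single VEGF-A gene of mammals. The transcript of *hif1ab* reports only the amount of its mRNA and not the oxygen-dependent level of the protein. The transcript *ddit4* was lower in *NOD1-1IS*-/- larvae on this array, and the question asked here is whether the hypoxia factor and the VEGF ligands followed it.

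The threshold cycle (Ct) of a well is the PCR cycle at which its signal passes a fixed level. Each cycle by which a well comes earlier means 2 times the template, provided that the product doubles per cycle. The 4 genes were read at 19.8 to 27.1 cycles, well before the last of the 40 cycles. Expression is given as −ΔCt, for which the Ct of a gene is subtracted from the mean over the reference genes *hprt1*, *nono* and *rpl13a*, on a log2 scale on which a higher value means more transcript. The median SD of −ΔCt between replicates over the 84 genes was 0.13 in WT and 0.14 in *NOD1-1IS*-/-. The 3 wells of the positive PCR control, which hold a fixed template, had replicate means of 19.3 to 19.7 cycles and came 0.21 cycles earlier in *NOD1-1IS*-/-, for which the raw Ct change was −0.21. These means were 19.71, 19.71 and 19.70 in WT replicates 1, 2 and 3 and 19.25, 19.69 and 19.55 in *NOD1-1IS*-/-.

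Relative to *hprt1*, *nono* and *rpl13a*, none of *hif1ab*, *vegfaa*, *vegfab* and *vegfc* passed the test between the genotypes, and none came near the decrease of *ddit4*. The mean level in *NOD1-1IS*-/- was 0.835 times the WT level for *hif1ab*, 1.17 times for *vegfaa*, 0.979 times for *vegfab* and 1.01 times for *vegfc*, against 0.273 times for *ddit4*. By limma with Benjamini-Hochberg adjustment over the 84 genes and a threshold of 0.05, 0 of the 4 were called lower and 0 of the 4 higher, and the unadjusted p was under 0.05 for 0 of them. Over all 84 genes, 19.0% were called lower and 3.57% higher, and for 32.1% the unadjusted p was under 0.05. The genotypes overlapped for all 4 genes on −ΔCt, whereas 38.1% of the 84 genes showed no overlap. All 4 changed by less than 1.5-fold, as did 74 of the 84 genes. The median log2 fold change was −0.01 for the 4 genes and −0.11 for the 84. The counts of 0 were also found with *hprt1* alone, *rpl13a* alone and the 4 reference genes without *acta1b*. They did not hold with every reference, since some others gave 1 or 3 higher genes or 1 lower gene.

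**Figure D1:**
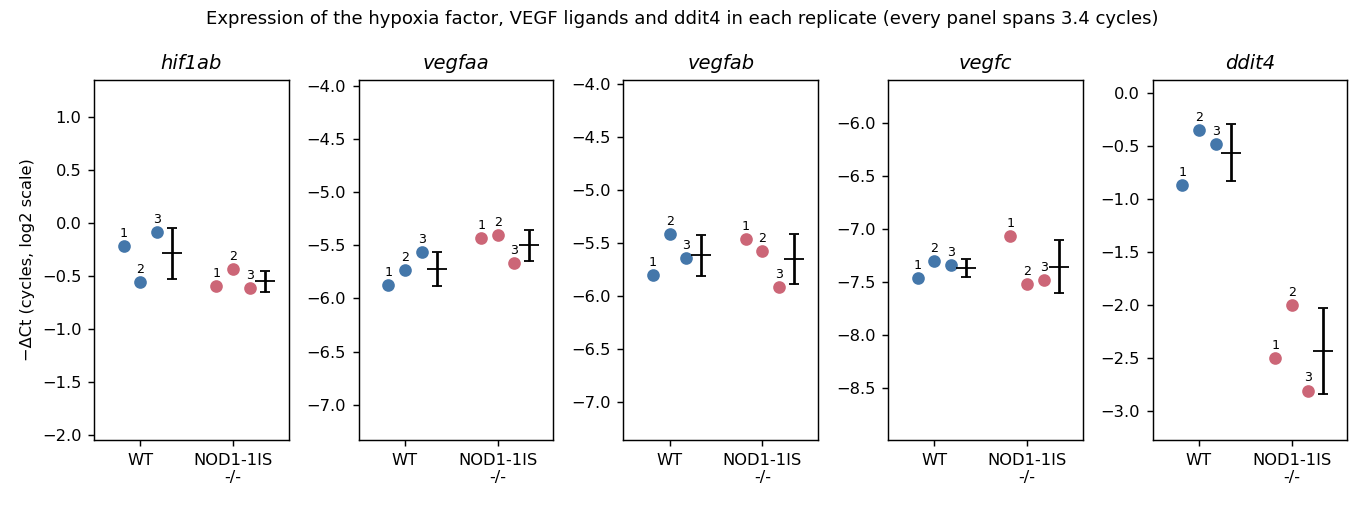
Expression (−ΔCt in cycles, a log2 scale) of the 4 genes and of *ddit4* in each WT (blue) and *NOD1-1IS*-/- (red) replicate, numbered by replicate, with the mean and SD (n = 3) in black. Every panel spans the same number of cycles. The genotypes overlap for *hif1ab*, *vegfaa*, *vegfab* and *vegfc* and lie apart for *ddit4*.

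The hypoxia factor *hif1ab*, which codes for an alpha subunit of hypoxia-inducible factor 1, had −ΔCt values of −0.22, −0.56 and −0.08 in WT replicates 1, 2 and 3 and of −0.59, −0.43 and −0.61 in the *NOD1-1IS*-/- replicates. WT replicate 2 lay among the *NOD1-1IS*-/- replicates, and the other two WT replicates lay above them. WT pools averaged −0.28 ± 0.24 (SD, n = 3) and *NOD1-1IS*-/- pools −0.55 ± 0.10 (SD, n = 3). The log2 fold change was −0.26 (standard error 0.14, 95% confidence interval −0.56 to 0.04, adjusted p = 0.206 from limma), or 1.20-fold lower. The two-sided exact permutation test gave p = 0.2, and with 3 replicates per genotype this test cannot give a p below 0.1.

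The raw Ct of *hif1ab* was nearly the same in the 6 replicates, between 19.8 and 20.1 cycles. Its range of 0.242 cycles was the 4th narrowest among the 84 genes, for which the median range was 0.560 cycles. In *NOD1-1IS*-/- its raw Ct was shifted by −0.04 cycles against WT (two-sided exact permutation test, p = 0.7), while the mean of the 3 reference genes was shifted by −0.30 cycles. The log2 fold change of *hif1ab* is the second shift minus the first. Raw Ct also carries differences between replicates in the PCR itself, as in the positive PCR control, and any difference in input. Neither scale thus settles the amount of the transcript. Among the log2 fold changes of the 84 genes it was the 27th lowest, and it lay 0.15 below their median (−0.15).

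Of the VEGF-A ligands, *vegfaa* had −ΔCt values of −5.88, −5.73 and −5.56 in WT replicates 1, 2 and 3 and of −5.43, −5.40 and −5.67 in *NOD1-1IS*-/-. Replicates 1 and 2 of *NOD1-1IS*-/- were above every WT replicate, and replicate 3 was below WT replicate 3. WT pools averaged −5.72 ± 0.16 (SD, n = 3) and *NOD1-1IS*-/- pools −5.50 ± 0.15 (SD, n = 3). The log2 fold change was 0.23 (standard error 0.12, 95% confidence interval −0.05 to 0.50, adjusted p = 0.220 from limma), or 1.17-fold higher, with p = 0.2 in the two-sided exact permutation test. This was the 8th highest of the 84 log2 fold changes and 0.34 above their median. The rank is the same whichever reference is used, as any reference adds the same amount to every gene.

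On raw Ct the genotypes did not overlap for *vegfaa*. Its Ct was 25.57, 25.23 and 25.30 cycles in WT replicates 1, 2 and 3 and 24.69, 24.80 and 25.02 in *NOD1-1IS*-/-, a change of −0.53 cycles (two-sided exact permutation test, p = 0.1). On raw Ct, 50.0% of the 84 genes did not overlap, and their median change was −0.19 cycles. The reference gene *nono* changed by a like amount to *vegfaa*, −0.51 cycles. The other references did not, with −0.19 for *hprt1*, −0.21 for *rpl13a*, 0.16 for *b2m* and 0.70 for *acta1b*. The gene *vegfaa* lies on the same chromosome as *nod1* in the assembly GRCz12tu, with 1047 protein-coding genes between them, whereas *hif1ab*, *vegfab*, *vegfc* and *ddit4* lie on other chromosomes. With 1 mutant line, differences in background between the mutant and WT fish cannot be told apart from the genotype for any of these genes. For *vegfaa* these include any variants linked to the mutated locus.

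The duplicate *vegfab* had −ΔCt values of −5.80, −5.41 and −5.64 in WT replicates 1, 2 and 3 and of −5.46, −5.57 and −5.91 in *NOD1-1IS*-/-. The highest value was in WT and the lowest in *NOD1-1IS*-/-, with the others intermixed. WT pools averaged −5.61 ± 0.20 (SD, n = 3) and *NOD1-1IS*-/- pools −5.65 ± 0.23 (SD, n = 3). This gives a log2 fold change of −0.03 (standard error 0.15, 95% confidence interval −0.36 to 0.30, adjusted p = 0.926 from limma). This interval spans 0.780 to 1.23 times the WT level.

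The ligand *vegfc* had −ΔCt values of −7.46, −7.30 and −7.34 in WT replicates 1, 2 and 3 and of −7.07, −7.52 and −7.48 in *NOD1-1IS*-/-. Replicate 1 of *NOD1-1IS*-/- was above all WT replicates and the other two were below them, so the mutant pools spread wider than the WT pools, with an SD of 0.25 against 0.08 (n = 3 each). The means were −7.37 in WT and −7.36 in *NOD1-1IS*-/-, for a log2 fold change of 0.01 (standard error 0.14, 95% confidence interval −0.29 to 0.31, adjusted p = 0.956 from limma). The interval spans 0.818 to 1.24 times the WT level. Without *NOD1-1IS*-/- replicate 1 the log2 fold change of *vegfc* was −0.13. For each of the 4 genes a p above the threshold does not show equal levels. The intervals give the uncertainty of the log2 fold change with these 3 references only. Values with some other references lay outside them, such as 0.52 for *vegfaa* with all 5 reference genes and, with *b2m* alone, 0.43 for *vegfab* and 0.48 for *vegfc*. In pools of whole larvae, fewer cells that make a transcript and less transcript per cell cannot be told apart.

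**Figure D2:**
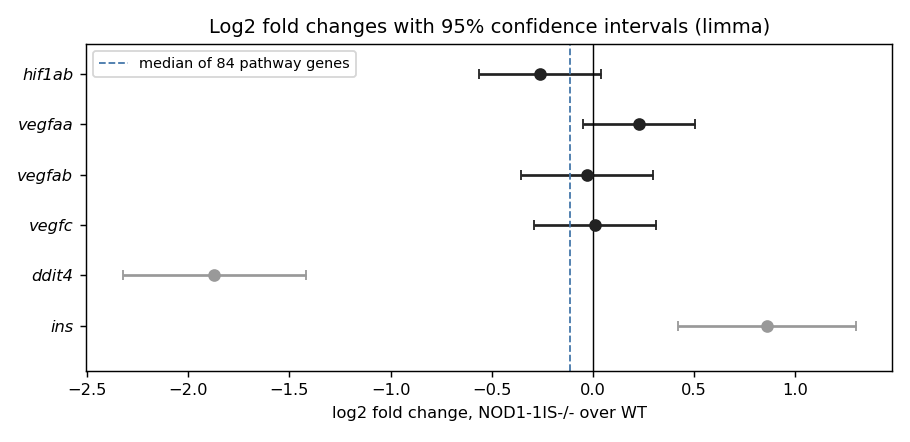
Log2 fold change of *NOD1-1IS*-/- over WT with its 95% confidence interval from limma for the 4 genes (black) and, in grey, for *ddit4* and *ins*. The dashed line is the median of the 84 pathway genes, −0.11. The intervals of the 4 genes all include 0 and lie between −0.56 and 0.50, and that of *ddit4* ends at −1.42.

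In the same pools, *ddit4* had −ΔCt values of −0.87, −0.35 and −0.48 in WT replicates 1, 2 and 3 and of −2.50, −2.00 and −2.81 in *NOD1-1IS*-/-. All 3 mutant replicates were below all WT replicates, and the log2 fold change was −1.87 (95% confidence interval −2.32 to −1.42), or 3.66-fold lower. This gene was picked for its decrease, so its values are a description. The lower bound for *hif1ab*, −0.56, was the lowest among the 4 genes, and all 4 intervals lay above that of *ddit4*.

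The comparison with *ddit4* needs no reference gene, since the Ct of *ddit4* minus the Ct of another gene in the same replicate is free of them. For *hif1ab* this difference was 0.65, −0.21 and 0.40 cycles in WT replicates 1, 2 and 3 and 1.91, 1.57 and 2.20 in *NOD1-1IS*-/-. The amount of *hif1ab* transcript relative to *ddit4* was thus 3.06-fold higher in *NOD1-1IS*-/-, a log2 difference of 1.61. Relative to *ddit4*, *vegfaa* was 4.28-fold, *vegfab* 3.58-fold and *vegfc* 3.69-fold higher, with log2 differences of 2.10, 1.84 and 1.88. For all 4 differences the *NOD1-1IS*-/- replicates lay above the WT replicates. Each difference holds the decrease for which *ddit4* was picked, so this separation is a description and would be found for any gene that changed little. When any 1 replicate was left out, the smallest log2 difference was 1.37, for *hif1ab*, and the largest was 2.27, for *vegfaa*.

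**Figure D3:**
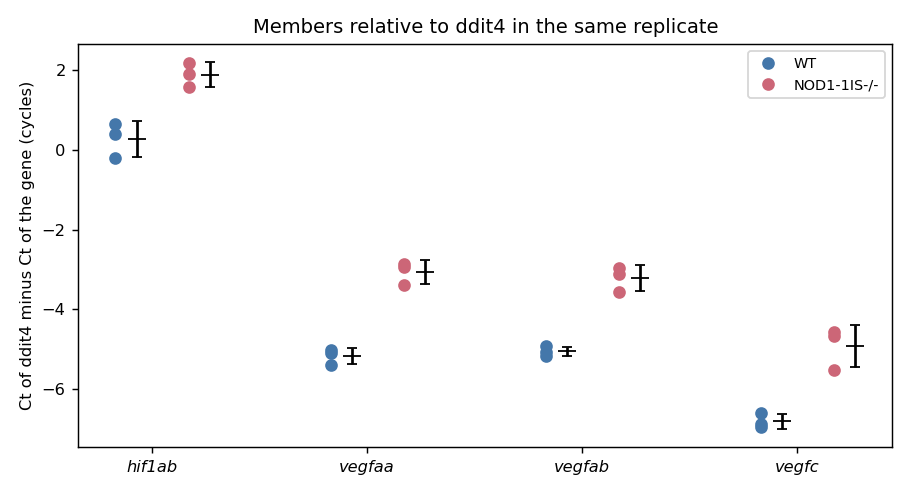
Ct of *ddit4* minus the Ct of each of the 4 genes in the same replicate (cycles) in WT (blue) and *NOD1-1IS*-/- (red), with the mean and SD (n = 3) in black. A higher point means more of the gene relative to *ddit4*. The *NOD1-1IS*-/- replicates lie above the WT replicates for each gene, by a mean of 1.61 cycles for *hif1ab* to 2.10 cycles for *vegfaa*.

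Among themselves, the 4 genes were compared in 6 pairs, again within each replicate and without reference genes. The ratio of *hif1ab* to *vegfaa* was the only 1 of the 6 for which the genotypes did not overlap. For single genes on −ΔCt the share without overlap was 38.1% of the 84. The share among ratios of other pathway genes was not computed, so 1 of 6 cannot be called unusual. The Ct of *vegfaa* minus that of *hif1ab* was 5.66, 5.18 and 5.48 cycles in WT replicates 1, 2 and 3 and 4.83, 4.97 and 5.05 in *NOD1-1IS*-/-. All 3 mutant replicates were thus below all WT replicates, and the log2 ratio of *hif1ab* to *vegfaa* changed by −0.49, and it lay between −0.62 and −0.38 when any 1 replicate was left out. The two-sided exact permutation test gave p = 0.1, the smallest possible, and p = 0.4 after Benjamini-Hochberg adjustment over the 6 pairs. No pair could reach 0.05 in this test with 3 replicates per genotype, even unadjusted, so it cannot decide whether the ratio changed.

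The VEGF-A duplicates moved apart by less. The Ct of *vegfab* minus that of *vegfaa* was −0.08, −0.32 and 0.08 cycles in WT replicates 1, 2 and 3 and 0.03, 0.17 and 0.24 in *NOD1-1IS*-/-, so that *vegfaa* gained 0.26 on the log2 scale relative to *vegfab*. The genotypes overlapped, and the two-sided exact permutation test gave p = 0.2, adjusted to 0.4. The log2 ratio of *vegfab* to *vegfc* changed least, by −0.04 (two-sided exact permutation test, p = 0.7). The primer pairs of the genes may differ in efficiency, so these differences in Ct do not rank the transcripts by amount.

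The choice of reference genes decided whether any of the 4 genes was called. The order of their log2 fold changes, from *hif1ab* through *vegfab* and *vegfc* to *vegfaa*, stays the same with any reference by construction, but the whole set shifts. With all 5 reference genes, *vegfaa* was higher by 0.52 (limma, adjusted p = 0.00682), and when set against the pathway mean it was higher by 0.47 (adjusted p = 0.00697). On raw Ct it was higher by 0.53 (adjusted p = 0.0177). In these 3 fits 19, 18 and 21 of the 84 genes were called higher. Against the pathway median, an alternative chosen after seeing the data, *vegfaa* was at 0.36 without a call (limma, adjusted p = 0.0665). With *nono* alone the value of *vegfaa* was only 0.02, and *hif1ab* was then called lower at −0.46 (limma, adjusted p = 0.0153), as were 29 of the 84 genes in all. The references differed among themselves. On the −ΔCt scale, *acta1b*, a muscle actin, was lower in *NOD1-1IS*-/- by a log2 fold change of −1.0 and *b2m* by −0.46, without overlap of the genotypes for either. The 3 references in use did not overlap either, with log2 fold changes of 0.20 for *nono*, −0.11 for *hprt1* and −0.0959 for *rpl13a* relative to their own mean. With *acta1b* alone or *b2m* alone, *vegfaa*, *vegfab* and *vegfc* were all called higher and *hif1ab* had a positive log2 fold change without a call, while 55 and 39 of the 84 genes were called higher. In the fits with *nono*, *b2m* or *acta1b* alone, the standard error from limma was the same for all genes, and p-values may be too small.

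**Figure D4:**
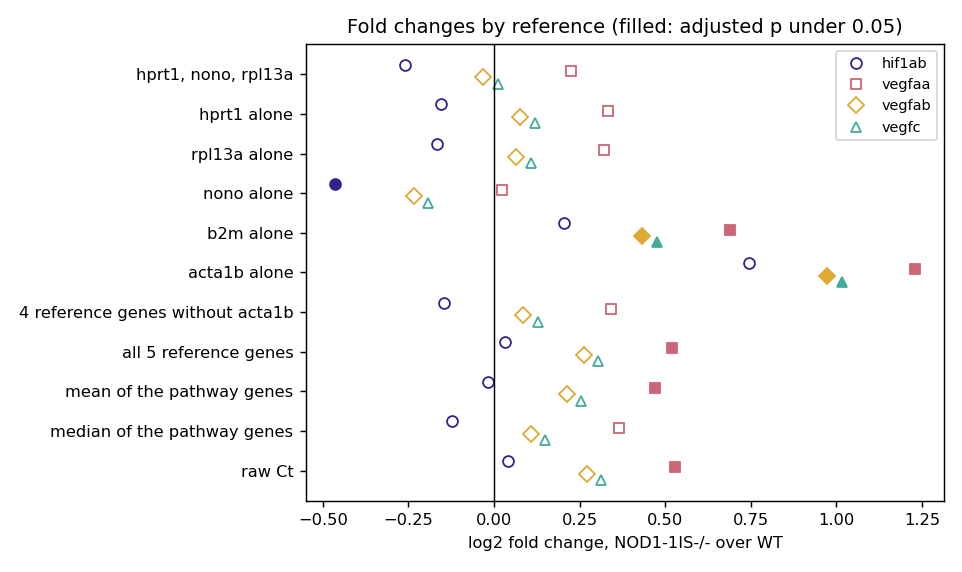
Log2 fold change of *NOD1-1IS*-/- over WT for the 4 genes with each reference, filled where the adjusted p from limma was under 0.05. No symbol is filled in the row of *hprt1*, *nono* and *rpl13a*. The same is true of *hprt1* alone, *rpl13a* alone, the 4 reference genes without *acta1b* and the pathway median. In every row *vegfaa* lies furthest right, and its values run from 0.02 with *nono* alone to 1.23 with *acta1b* alone.

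The genes most like each of the 4 over the 6 replicates were found from −ΔCt centered on its mean, by the root mean square difference from every other pathway gene. The closest to *hif1ab* were *ulk2*, a kinase of autophagy, at 0.0623 and *pdpk1b*, which phosphorylates Akt, at 0.0831 on the log2 scale. Their Pearson r with *hif1ab* was 0.95 and 0.92 over the 6 replicates, which share the mean of the same reference genes. These genes, like those below, were picked as the closest of 83, so a high r follows in part from that choice. Close to *vegfaa* was *eif4ebp1*, a repressor of cap-dependent translation, at 0.0946 (r = 0.83). The closest to *vegfab* were *eif4ebp2*, a related repressor, at 0.0667 (r = 0.93) and *rps6*, which codes for a protein of the small ribosomal subunit, at 0.0934 (r = 0.87). The latter was also the closest to *vegfc*, at 0.0893 (r = 0.81), followed by *prkaa1*, a catalytic subunit of AMPK, at 0.102 (r = 0.74). None of these 6 genes had an adjusted p under 0.05, and their log2 fold changes lay between −0.28 and 0.20.

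The root mean square difference of *ddit4* was 0.864 from *hif1ab*, 1.07 from *vegfaa*, 0.941 from *vegfab* and 0.994 from *vegfc*, rank 81 of 83 for each. This measure includes the difference between genotypes for which *ddit4* was picked, so the rank follows from that choice for any gene that changed little. The Pearson r of *ddit4* over the 6 replicates was 0.64 with *hif1ab*, −0.48 with *vegfaa*, 0.29 with *vegfab* and −0.03 with *vegfc*, and it moves with the reference genes. Of the 4 genes, *vegfab* and *vegfc* were nearest to each other, at 0.139. The hypoxia factor was far from the ligands, since *vegfaa*, *vegfab* and *vegfc* had ranks 62, 64 and 59 of 83 for *hif1ab*. Between *vegfaa* and *vegfab* the difference was 0.184, and the rank of *vegfab* for *vegfaa* was 23.

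The other growth factor ligands of the array were *ins*, which codes for preproinsulin, and *igf1*. Of these 2, *ins* rose by 0.86 on the log2 scale (limma, adjusted p = 0.0110), and *igf1* had a value of −0.11 that did not pass. Of the 11 genes of mTORC1 and cap-dependent translation, 0 were lower and 1 was higher, against 19.0% and 3.57% of all 84 genes. The list follows the route by which mTORC1 raises the HIF-1 alpha protein in mammals. It also holds the repressors *eif4ebp1* and *eif4ebp2*, so its counts and median mix genes that promote and restrain this route. The higher gene was *mlst8*, an mTOR-binding subunit, at 0.37 on the log2 scale (limma, adjusted p = 0.0362), and the median of the list was −0.07 against −0.11 for all 84 genes. Its call was lost with *nono* alone and without any one of the WT replicates or *NOD1-1IS*-/- replicate 2, and that of *ins* without WT replicate 3 or *NOD1-1IS*-/- replicate 2.

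Of the 13 genes that slow mTORC1 under stress, 3 were lower, 0 were higher and the median was −0.10, and *ddit4*, picked for its decrease, is 1 of the 3. This share is near the 19.0% of all 84 genes called lower. The lower genes were *ddit4* and the AMPK subunit genes *prkab2* and *prkaa2*, with log2 fold changes of −1.87, −0.81 and −0.51. Signaling below growth factor receptors, those for VEGF among them, was covered by 16 genes, none of which is a VEGF receptor. Of these 16 genes, 3 were lower, 0 were higher and the median was −0.17, again near the 19.0% of all 84 genes. Among them were the Akt kinase genes *akt2l* and *akt2*, with log2 fold changes of −6.30 and −0.40. With 9 other normalizations, the calls of *ddit4* and *akt2l* held in all 9, that of *prkab2* in 7, that of *prkaa2* in 4, and that of *akt2* in 1, *nono* alone. Endothelial markers and VEGF receptors were not analysed here. Of the 2 genes taken as markers of a cell type, *ins* was higher and *acta1b* lower, and the plate was not searched for other such genes. The part of the cells marked by *ins* and *acta1b* in the values of the 4 genes was not tested.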

How the data were processed

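The zebrafish mTOR PCR array was run on 3 biological replicates per genotype. The authors reverse transcribed 1000 ng of total RNA and ran 40 cycles. The deposited raw Ct values are a score in cycles per well. The authors' deposited normalized values are linear, each the ratio of a gene to the reference genes (the power of 2 with −ΔCt as exponent), averaged per genotype. Their logarithms differed from those computed here with *hprt1*, *nono* and *rpl13a* by at most 4.00e-07. The deposited fold changes between genotypes were not used. Ct was joined to gene symbols by well.

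Genotypes were compared on −ΔCt by two-sided tests in limma 3.58.1 (R 4.3.3), and p-values were adjusted after Benjamini-Hochberg for the 84 pathway genes, with a threshold of 0.05. The fit was tested on simulated data with independent noise for each gene, which does not test the choice of reference genes. Single values were compared with two-sided exact permutation tests. No gene reached the limit of 35 cycles. PCR arrays have no read depth, and 3 replicates limit the precision.

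The 4 genes, the lists and the tests were chosen with earlier results of these data known. Named besides the 4 genes are *ddit4*, *ins*, the reference genes, the 2 genes closest to each of the 4, and list genes past the threshold, except that some single values are not reported here. The gene *igf1* falls outside this rule and was named to complete a list of 2. The symbols *hif1ab* and *vegfab* were matched to the assembly GRCz12tu by name, the others by identifier. Sequences were not analysed here, so neither promoter motifs nor protein identities are given.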

Additional observations from a re-analysis of the deposited data

How the results depend on the processing

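Another reference shifted all 4 genes. With all 5 reference genes 1 gene was called higher, and the log2 fold changes were 0.0329 for *hif1ab*, 0.52 for *vegfaa* and 0.26 for *vegfab*. With *acta1b* alone 3 were higher, and *hif1ab*, *vegfaa*, *vegfab* and *vegfc* were at 0.74, 1.23, 0.97 and 1.02. With *b2m* alone 3 were higher, at 0.20, 0.69, 0.43 and 0.48 in the same order. With *nono* alone 1 was lower, with *hif1ab* at −0.46 and *vegfc* at −0.19. Against the pathway mean 1 was higher, with *vegfaa* at 0.47 and *vegfab* at 0.21. On raw Ct 1 was higher, with *hif1ab* at 0.0416, *vegfaa* at 0.53 and *vegfab* at 0.27. The value of *vegfab*, which was near 0, became 0.0853 with the 4 reference genes without *acta1b*, 0.0769 with *hprt1* alone, 0.0651 with *rpl13a* alone and, as alternatives chosen after seeing the data, 0.0710 with *hprt1* and *rpl13a* only and 0.11 against the pathway median. With each of these, 0 of the 4 genes were called.

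With each replicate left out in turn, no gene was called, and *hif1ab* was at −0.40 to −0.16, *vegfaa* at 0.15 to 0.31, *vegfab* at −0.12 to 0.10 and *vegfc* at −0.13 to 0.0914. The labels do not say whether the replicate numbers pair the samples. Same-numbered replicates had correlations of −0.22, 0.09 and −0.05 in their deviations, and differently numbered ones ran from −0.35 to 0.46. With 3 replicates per genotype these correlations cannot settle it. A replicate block cannot change the log2 fold changes when each number occurs once per genotype, so they stayed at −0.26, 0.23, −0.03 and 0.01. The fit with this block called 0 of the 4 genes. Over all 84 genes it gave 14 lower and 2 higher genes against 16 and 3. The standard error of this fit was the same for all genes, so its p-values do not reflect the spread of each gene. Over the alternatives the adjusted p from limma ran from 0.0153 to 0.909 for *hif1ab*, 3.05e-04 to 0.934 for *vegfaa*, 0.0240 to 0.935 for *vegfab* and 0.0140 to 0.970 for *vegfc*. The lowest values came from *nono* alone for *hif1ab* and from *b2m* alone for the 3 ligands. In these fits too the standard error was the same for all genes. Leaving out genes with a mean Ct over 25 cycles removed the 3 ligands, so it gives values for *hif1ab* only. The difference from *ddit4* and the root mean square difference between genes are free of the references by construction, but Pearson r is not. Against the pathway mean, r with *hif1ab* was 0.87 in place of 0.95 for *ulk2*, 0.76 in place of 0.92 for *pdpk1b* and −0.0147 in place of 0.64 for *ddit4*.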
